A study of Rattus norvegicus with 7 samples.

Results

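The subject is a pair of gene models, ENSRNOG00000020560 on chromosome 1 and ENSRNOG00000007247 on chromosome 4, out of 29630 models counted in the rat vomeronasal epithelium. They were chosen by their measured level, as the nuclear models outside chromosome 3 that stood among the 10 highest by mean CPM (a model's counts scaled by the total of its library). The tissue came from 7 male LEW/Crl rats (an inbred Lewis strain) aged 8 weeks that had been flushed of blood with heparin, and each rat gave 1 library of polyA-selected RNA read as single ends of 100 nucleotides. All rats form 1 group with no treatment or contrast, so the data describe levels, their spread between animals and the way models moved together from rat to rat. The series' design also mentions single-cell sequencing, which was not analysed here.

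The vomeronasal organ is a paired chemosensory tube in the nasal septum. Its sensory epithelium holds receptor neurons, supporting cells and basal cells, and the neurons each express receptors of the V1R or V2R family in the main. Glands around the organ secrete proteins into its lumen, and a dissected epithelium can carry RNA of such cells. RNA of whole tissue sums over all cell types, so that fewer cells of a type and less RNA per cell cannot be told apart for any level given here. The deposited files do not pair Ensembl identifiers with gene names, and the models are therefore described by identifier, position and structure.

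The libraries held 64085829 to 74924005 assigned counts, and 1 CPM stood for 64.1 to 74.9 counts. Detection was set at 10 or more counts in 4 or more of the 7 rats, and 16670 models reached it. As a check of the tissue label, all 5 intact V1R genes that the files name were detected, from 0.488 ± 0.0662 CPM for NG_Vom1r44l to 9.51 ± 1.83 CPM for NG_Vom1r16 (SD, n = 7). Markers of other cell types could not be looked up without gene names.

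The chromosome 1 model had the third highest CPM of all models in every rat. It lies on the plus strand at 190427623–190564079 (RGSC3.4, the build named in the file headers) and spans 136.5 kb. Its 88 annotated exon entries merge into 49 separate exon blocks with 7056 bases in all, 5.17% of the span. Its levels in rats 1 to 7 were 48768, 43269, 47097, 46325, 42960, 50173 and 42724 CPM. Rats 2, 5 and 7 lay close together at the bottom, rats 1 and 6 were highest, and the whole range was 1.17-fold. The mean was 45902 ± 2993 CPM (SD, n = 7), or 4.59% ± 0.299 of all counts. The Wilson 95% interval of the share was 4.27% to 4.28% in rat 7, the lowest, and 5.01% to 5.02% in rat 6, the highest. The interval covers counting error only and is far narrower than the spread between rats, so that depth did not limit these values.

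Second of the pair, the chromosome 4 model was the sixth or seventh highest by CPM in every rat. It lies on the minus strand at 165561239–165603598 (RGSC3.4), spans 42.4 kb and has 40 exon blocks with 4371 bases, 10.3% of the span. Its levels in rats 1 to 7 were 13886, 11479, 12939, 14977, 11440, 14178 and 11615 CPM. Rats 2, 5 and 7 again lay close together at the bottom, but here rat 4 was highest, and the range was 1.31-fold. The mean was 12931 ± 1456 CPM (SD, n = 7), or 1.29% ± 0.146 of all counts. Both models together took 5.88% ± 0.426 of the counts (SD, n = 7).

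**Figure D1:**
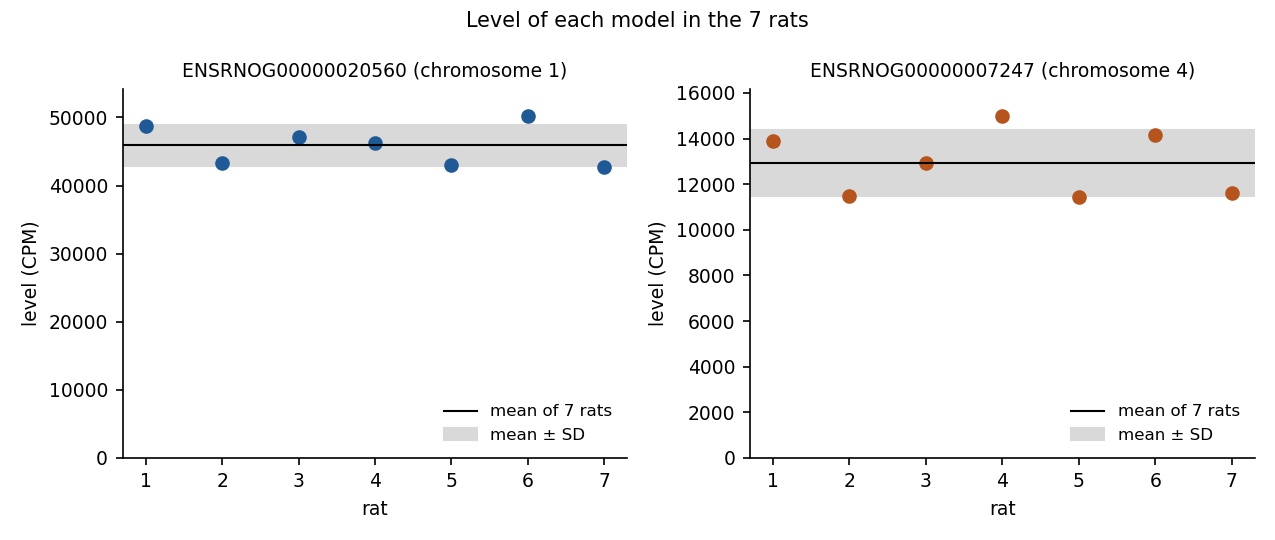
Level of each model in each of the 7 rats (points, CPM, axis from 0), with the mean (line) and SD (grey band) of the 7 rats. Rats 2, 5 and 7 are the lowest for both models, and the highest is rat 6 at 50173 CPM for the chromosome 1 model and rat 4 at 14977 CPM for the chromosome 4 model.

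The limit of the choice lay between the tenth and eleventh model of the list. The tenth, ENSRNOG00000034234 on the mitochondrial genome, had 6661 ± 500.4 CPM, and the eleventh, ENSRNOG00000034593 on chromosome 8, had 6108 ± 419 CPM (SD, n = 7). The latter, with a single exon of 331 bases, would have been the next nuclear model outside chromosome 3, followed by ENSRNOG00000035319 on chromosome X at 3574 ± 244.6 CPM.

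In the order of CPM, the chromosome 1 model stood clear of the models next to it. ENSRNOG00000042407, the second, ranged from 124544 to 151378 CPM, and ENSRNOG00000040188, the fourth, from 30003 to 39615 CPM, so that neither range met that of the chromosome 1 model. In contrast, the chromosome 4 model overlapped ENSRNOG00000026208, the sixth, which ranged from 11394 to 15701 CPM and was the higher of the pair in 4 of 7 rats. It stood above ENSRNOG00000043866, the eighth, in all 7 rats.

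Long models collect more reads per transcript, so levels of different genes were compared per kilobase of exon. On the RPKM scale (CPM per kilobase of the model) the chromosome 1 model had 6505 ± 424.2 and the chromosome 4 model 2958 ± 333.1 (SD, n = 7). Their ranks fell from 3 to 10 and from 7 to 16. The chromosome 1 model was thus 3.57 ± 0.232 times the chromosome 4 model by CPM and 2.21 ± 0.144 times by RPKM (SD, n = 7). In RPKM the chromosome 4 model overlapped ENSRNOG00000032607, a chromosome 3 model of 411 bases ranked just above it at 3003 ± 370.7, which was higher in 3 of 7 rats. For comparison, the median length of the 100 models highest by CPM was 2174 bases with a median of 10 exon blocks, and 12 of them had 1 block. Of these 100 models, 10 were longer than the chromosome 1 model and 28 longer than the chromosome 4 model.

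Both models dominated the counts of their chromosomes. The chromosome 1 model held 45.8%, 41.7%, 43.3%, 44.1%, 41.4%, 46.1% and 39.2% of all chromosome 1 counts in rats 1 to 7, a mean of 43.1% ± 2.50 (SD, n = 7) among 3854 models. Of the chromosome 4 counts, the chromosome 4 model held 33.2%, 27.8%, 29.9%, 33.8%, 28.1%, 32.9% and 26.2%, a mean of 30.3% ± 3.06 (SD, n = 7) among 1932 models. The lowest share of both was that of rat 7. After division by model length the shares were smaller and nearly equal, at 14.9% and 14.3%.

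The spread between rats was next set beside that of other abundant models. The coefficient of variation (CV, the SD as a percentage of the mean) was 6.52% for the chromosome 1 model and 11.3% for the chromosome 4 model. The median of the 1039 models with a mean of at least 100 CPM was 6.97%, and 476 and 789 of them varied less. The values depended on the scaling. The share of the 6 abundant chromosome 3 models ranged from 33.3% to 40.3% of a library, and its part in this was not tested. With TMM factors (edgeR's trimmed mean scaling), the CVs were 10.1% and 14.5%, and 798 and 953 of the 1039 models varied less than the chromosome 1 and chromosome 4 model. Rats 2, 5 and 7 remained the 3 lowest for both models with TMM factors, with DESeq2 size factors and with totals without the 10 highest models.

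The models within 500 kb of each, measured edge to edge, were far lower. The files place 17 models around the chromosome 1 model, 4 on its 5′ side and 13 on its 3′ side, and 20 around the chromosome 4 model, 9 on its 5′ side and 11 on its 3′ side. None overlaps either model's span. Around the chromosome 1 model 10 of 17 were detected and around the chromosome 4 model 12 of 20, against 56.3% of all 29630 models. In each window 2 models had no count in the 7 rats together, so that their level may be anything up to 0.00622 CPM. The chromosome 1 model took 99.2% ± 0.0592 of the counts of its window and the chromosome 4 model 98.6% ± 0.232 (SD, n = 7). The level chose the 2 models, so that these differences are a description.

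Near the chromosome 1 model, detected neighbours had 0.359 to 137.1 CPM with a median of 30.0 CPM, against 11.8 CPM for all detected models. The highest was ENSRNOG00000034038 (chromosome 1, 190663680–190672752, plus strand), which is also the nearest on the 3′ side, at 99.6 kb. It had 148.0, 127.4, 140.2, 138.2, 124.7, 151.4 and 130.1 CPM in rats 1 to 7, and rats 2, 5 and 7 were again the 3 lowest. The mean was 137.1 ± 10.2 CPM (SD, n = 7), and the chromosome 1 model was 335-fold above it by CPM and 50.2-fold by RPKM. ENSRNOG00000020497 (190187202–190238308, plus strand) followed with 53.1 to 69.0 CPM, and ENSRNOG00000020533 (190257874–190308326, plus strand), the nearest on the 5′ side at 119.3 kb, with 50.4 to 69.5 CPM. These pairs of ranges overlap, and the latter had its highest level in rat 7, where the chromosome 1 model was lowest. The 7 models not detected all lay on the 3′ side.

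Near the chromosome 4 model, detected neighbours were lower, at 0.419 to 124.8 CPM with a median of 1.95 CPM. The highest, ENSRNOG00000006444 (chromosome 4, 165449330–165456457, minus strand), lay 104.8 kb away on the 3′ side. Its levels were 111.5, 128.4, 128.8, 120.0, 128.6, 117.6 and 138.5 CPM in rats 1 to 7, lowest in rat 1 and highest in rat 7. The chromosome 4 model was 103.6-fold above it by CPM and 36.0-fold by RPKM. ENSRNOG00000005767 (165334651–165376060, minus strand) had 30.3 to 40.4 CPM, and ENSRNOG00000006264 (165429675–165442930, minus strand) had 6.80 to 9.15 CPM. The models closest to it had few counts. ENSRNOG00000006709 (165505085–165551145, minus strand), 10.1 kb away on the 3′ side, had 0.131 ± 0.0651 CPM (SD, n = 7) and was not detected. ENSRNOG00000007310 (165637478–165712097, minus strand), 33.9 kb away on the 5′ side, had 0.775 ± 0.130 CPM (SD, n = 7).

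**Figure D2:**
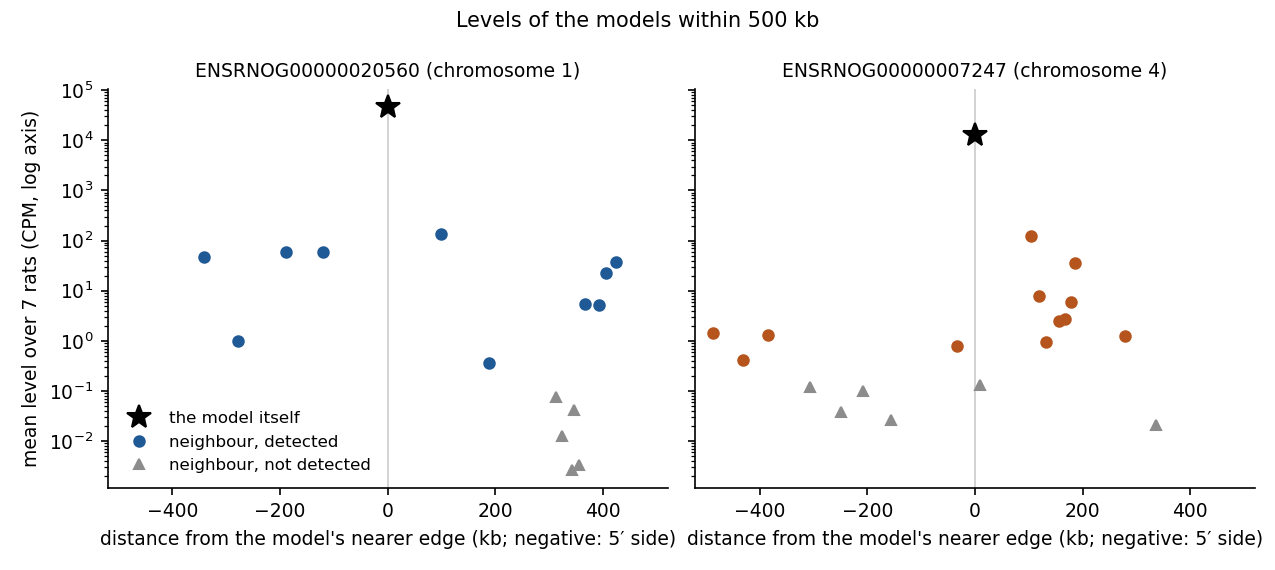
Mean level over 7 rats (CPM, log axis) of the models within 500 kb against their distance in kb from the nearer edge of the chromosome 1 model (left) or the chromosome 4 model (right), with negative distances on the 5′ side. The stars are the 2 models themselves, at 45902 and 12931 CPM, and no neighbour (circles detected, triangles not detected) exceeds 137.1 CPM; 2 models without counts in each window are not drawn.

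The choice of the 2 models used their mean level and not the way they moved from rat to rat. Over the 7 rats, log2(CPM + 0.1) of the chromosome 1 and the chromosome 4 model correlated with Pearson's r = 0.837 (exact two-sided permutation p = 0.0302) and Spearman's rho = 0.679 (exact permutation p = 0.110). Adjusted by Benjamini-Hochberg over the 9 relations computed in this family, the exact permutation values were 0.271 for r and 0.493 for rho, so that the relation did not pass the threshold of 0.05. Without rats 4 and 5, the 2 farthest from the median of the chromosome 4 model, r was 0.991. The relation passed with the other scalings, with r = 0.910 for TMM factors (adjusted exact permutation p = 0.0464), 0.913 for DESeq2 size factors (0.0411) and 0.911 for totals without the 10 highest models (0.0464). The last of these leaves out the list that chose the 2 models, and every scaling divides both by a factor they share in each rat. What part that factor has in these passes was not tested. With total counts, rats 2, 5 and 7 are set apart from the others by the widest gap in both models. It was 3057 of a range of 7449 CPM in the chromosome 1 model and 1324 of 3537 CPM in the chromosome 4 model. With TMM factors the widest gap fell elsewhere. In the chromosome 1 model rat 7 had 38974 CPM, rats 2 and 5 had 43293 and 43286, and rat 3 had 46155. In the chromosome 4 model rats 2, 5 and 7 had 11485, 11527 and 10596 CPM. Rat 3 followed at 12680 and rat 6 at 14593 CPM. No correlation is given within rats 2, 5 and 7 or within the other 4 rats, and how far r rests on the gap between them was not tested.

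The ratio of the chromosome 1 to the chromosome 4 model shows which rat departed. It was 3.51, 3.77, 3.64, 3.09, 3.76, 3.54 and 3.68 in rats 1 to 7, so that rat 4 alone lay below 3.5. In that rat the chromosome 4 model was at its highest while the chromosome 1 model was close to its mean. Without rat 4 the 2 models had r = 0.992, which is a description, since that rat was singled out for its departure.

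**Figure D3:**
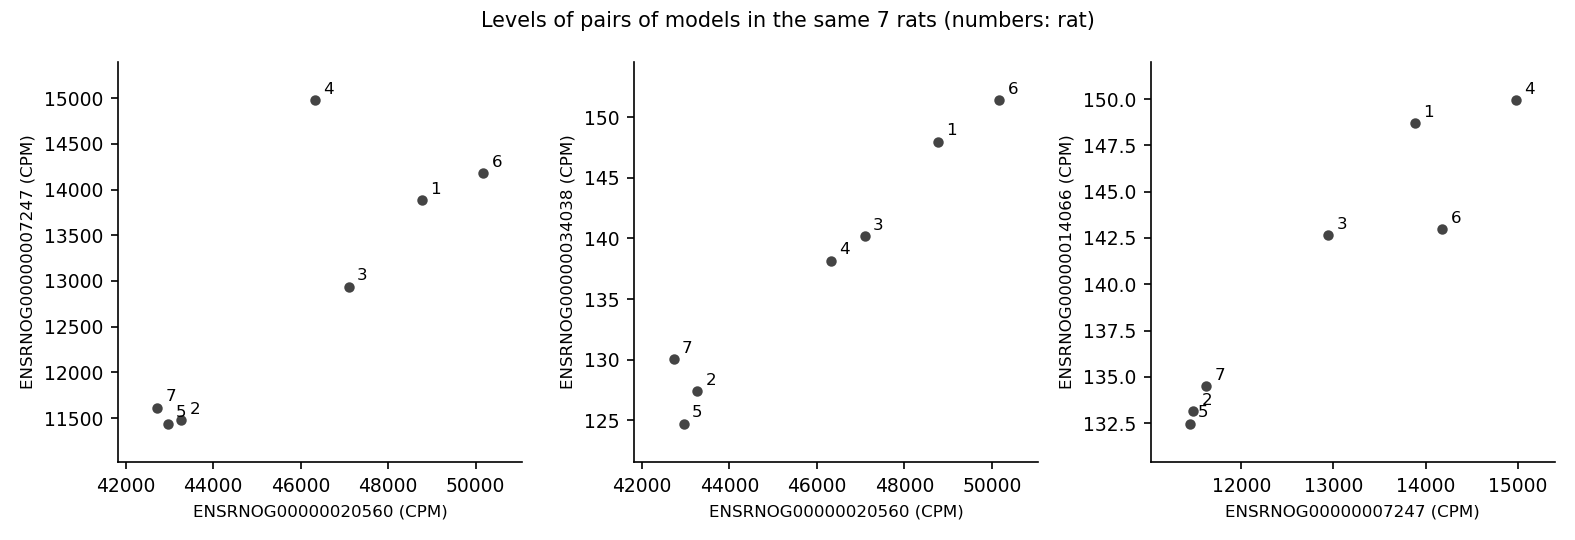
Levels in the same 7 rats (numbered points, CPM on both axes) of the chromosome 4 model against the chromosome 1 model (left), of ENSRNOG00000034038 against the chromosome 1 model (middle) and of ENSRNOG00000014066 against the chromosome 4 model (right). Rats 2, 5 and 7 lie together at the low end of every panel, and rat 4 lies above the others' line in the left panel (ratio 3.09 against 3.51 to 3.77).

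The other 8 relations set each model against a summary of the library. The summed CPM of the 5 named V1R genes, receptors of the sensory neurons, gave r = -0.657 with the chromosome 1 model (exact permutation p = 0.115, adjusted 0.497; rho = -0.679) and r = -0.566 with the chromosome 4 model (exact permutation p = 0.192, adjusted 0.497; rho = -0.357). Without rats 6 and 7, r was -0.0983 and -0.288, so that both rest on those rats. The 6 abundant chromosome 3 models gave r = 0.473 and 0.485 (exact permutation p = 0.304 and 0.290, adjusted 0.497 each; rho = 0.429 and 0.393; r = 0.429 and 0.569 without rats 3 and 7). These values moved with the scaling, to 0.809 and 0.737 with TMM factors (adjusted exact permutation p = 0.0732 each), 0.816 and 0.747 with DESeq2 size factors (0.0583 each) and 0.803 and 0.733 without the 10 highest models in the total (0.0845 each). Without rat 7 they were 0.105 and 0.325. The 37 mitochondrial models gave r = 0.190 and -0.0518 (exact permutation p = 0.678 and 0.908, adjusted 0.763 and 0.908; rho = 0.143 and 0.0357), and 0.994 and 0.991 without rats 4 and 7, the 2 farthest from the median. The library total gave r = -0.319 and -0.418 (exact permutation p = 0.465 and 0.332, adjusted 0.598 and 0.497; rho = -0.214 and -0.429; r = -0.411 and -0.298 without rats 2 and 3). None of the 8 passed the threshold, with total counts or with the other 3 scalings.

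To see whether neighbours followed the 2 models, each of the 16669 other detected models was related to them in the same way. After adjustment over all of these, 0 models passed for either one, which is 0% called, by Pearson's r or by Spearman's rho. With 7 rats the smallest exact permutation p is 0.000198 for r, and 67 models would have to reach it before any could pass. For rho the smallest is 0.000397, and still more models would be needed. The adjusted test therefore says little. At an unadjusted exact permutation p under 0.05, 2827 models (17%) were related to the chromosome 1 model by r, 230 positively (1.38%) and 2597 negatively (15.6%), while rho gave 2287 models (13.7%), 222 positively (1.33%) and 2065 negatively (12.4%). For the chromosome 4 model these were 985 models (5.91%), 109 positively (0.654%) and 876 negatively (5.26%), while rho gave 645 models (3.87%), 128 positively (0.768%) and 517 negatively (3.1%). The excess of negative relations depended on the scaling. Of the models at an unadjusted p under 0.05, 8.14% were positive for the chromosome 1 model with total counts, 42.8% with TMM factors, 48.3% with DESeq2 size factors and 41.2% without the 10 highest models. For the chromosome 4 model the shares were 11.1%, 50.5%, 56.3% and 53.4%.

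Read against that background, the neighbours of the chromosome 1 model counted 3 of 10 at an unadjusted p under 0.05, 1 positive and 2 negative, and those of the chromosome 4 model 1 of 12, negative. With TMM factors the counts were 1 of 10 and 2 of 12, against 18.9% and 9.62% of all detected models. Without rat 1, 4, 6 or 7, the first count was 1 of 10 each time. The shares of all detected models were then 9.42%, 12.5%, 13.3% and 6.50%. Without rat 4 the second count was 2 of 12, against 10.7%. Median r was -0.346 and -0.329 over the 10 and 12 neighbours, against -0.397 and -0.372 over all detected models.

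Among the neighbours, ENSRNOG00000034038 had the highest r with the chromosome 1 model, without passing the adjusted threshold. With total counts it had r = 0.980 (exact permutation p = 0.00119, adjusted over all detected models 0.269) and rho = 0.893 (exact permutation p = 0.0123). On that scaling it had the highest r of the 14347 models with a mean of at least 1 CPM. Its r was 0.973 without rats 5 and 6 and 0.988 with TMM factors. The quotient of the 2 levels stayed between 329 and 344 in all rats while the levels themselves changed 1.17-fold and 1.21-fold. Its counts held fractions in all 7 rats, as did those of the chromosome 1 model. Under the authors' counting a fraction arises when a read maps to more than 1 place, and whether the pair shared reads was not tested.

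Of the detected neighbours, 3 of 10 had a positive r with the chromosome 1 model and 3 of 12 with the chromosome 4 model. Of all 16669 detected models, 4586 and 3999 had a positive r, so that the neighbours were near the background. With TMM factors 5 and 5 neighbours were positive, where the median r over all detected models was -0.0231 and -0.0299. Apart from ENSRNOG00000034038, the highest positive values were 0.597 for ENSRNOG00000036675 with the chromosome 1 model (exact permutation p = 0.138; -0.471 without rats 1 and 6) and 0.614 for ENSRNOG00000030823 with the chromosome 4 model (exact permutation p = 0.133; 0.698 without rats 1 and 2). ENSRNOG00000020624, at r = -0.279 with the chromosome 1 model, had r = 0.765 with TMM factors. These 3 were named after their values were seen. ENSRNOG00000020497 had r = -0.768 with the chromosome 1 model (exact permutation p = 0.0413, adjusted 0.287; rho = -0.750), and -0.435 without rats 6 and 7, so that it rests on those rats. ENSRNOG00000025651 (190969408–190987454, minus strand, 405 kb away), named here after its value was seen, had r = -0.777 (exact permutation p = 0.0335, adjusted 0.283; rho = -0.929; r = -0.786 without the 2 farthest rats). ENSRNOG00000020533 had r = -0.413 (exact permutation p = 0.361). For the chromosome 4 model, ENSRNOG00000042939 (165419535–165428226, plus strand, 133 kb away), also named after its value was seen, had r = -0.902 (exact permutation p = 0.00853, adjusted 0.620; rho = -0.821; r = -0.839 without the 2 farthest rats) at 0.787 to 1.06 CPM. ENSRNOG00000006444 had r = -0.772 (exact permutation p = 0.050, adjusted 0.620; rho = -0.571). ENSRNOG00000005767, ENSRNOG00000006264 and ENSRNOG00000007310 had r = -0.288, 0.162 and -0.0147 (exact permutation p = 0.523, 0.695 and 0.983).

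**Figure D4:**
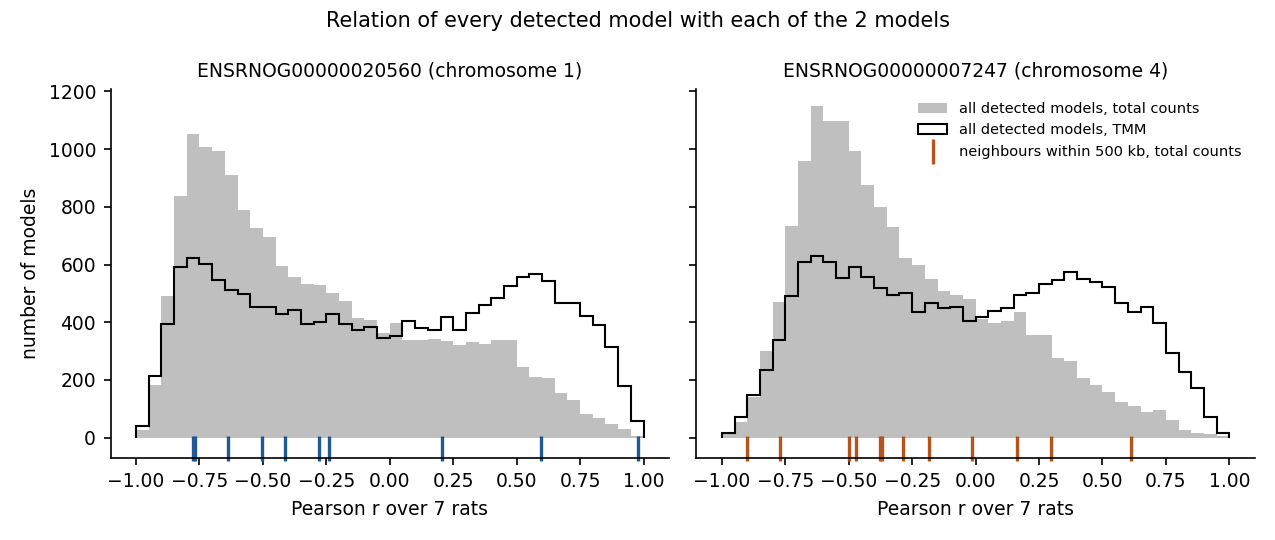
Number of detected models (16669) by their Pearson r over 7 rats with the chromosome 1 model (left) and the chromosome 4 model (right), scaled by total counts (grey) or with TMM factors (outline), with ticks for the detected neighbours within 500 kb. The grey distributions lean to negative values (medians -0.397 and -0.372), the outlines do not, and 1 tick at 0.980 in the left panel is ENSRNOG00000034038.

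The 2 models with the highest and the 2 with the lowest r are named for each of the pair. After ENSRNOG00000034038, the chromosome 1 model was most like ENSRNOG00000012165 (chromosome 4, 84692099–84803959), at r = 0.973 and rho = 0.964 over 7 rats. It had 133.8, 110.0, 125.7, 123.7, 116.1, 136.6 and 108.9 CPM in rats 1 to 7, lowest in rats 2, 5 and 7, with whole counts in every rat, and r = 0.990 with TMM factors. The chromosome 4 model was most like ENSRNOG00000037504 (chromosome 6, 140951420–140953140) at r = 0.958 and rho = 0.857, a low model of 0.471 to 3.32 CPM that was highest in rat 4. ENSRNOG00000014066 (chromosome 2, 128499983–128553050) followed at r = 0.956 and rho = 0.964 with 132.5 to 149.9 CPM, again lowest in rats 2, 5 and 7 and highest in rat 4. With TMM factors, r was 0.961 and 0.967 for these.

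At the opposite end, ENSRNOG00000006740 (chromosome 14, 84840815–84845227) ran against the chromosome 1 model at r = -0.996, with 3.28 CPM in rat 6 and 4.20 CPM in rat 7, and its order over the rats was exactly reversed (rho = -1). ENSRNOG00000020466 (chromosome 7, 9930015–9934987) had r = -0.991. The chromosome 4 model had its lowest values with ENSRNOG00000020861 (chromosome 1, 205009566–205012786), at r = -0.979, and ENSRNOG00000016565 (chromosome 1, 67563818–67564465), at r = -0.977. These negative values were weaker with TMM factors, at -0.679, -0.424, -0.613 and -0.703 in the order named. The extremes were picked from 14347 models and are a description.

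The structure of the models was read from the exon coordinates in the files. The choice did not use it directly, but CPM is not divided by length, so the choice favours long models. Their length and number of blocks are therefore a description. Both lengths are whole numbers of codons, 2352 and 1457. The share of all models with such a length was not computed, and whether the exons are coding was not tested. The chromosome 1 length joins 88 exon entries merged into 49 blocks, so it need not be 1 reading frame. Each is long and much divided for this tissue. The median detected model had 1884 bases and 8 exon blocks, and 2.28% of detected models were longer than the chromosome 1 model and 1.01% had more blocks. For the chromosome 4 model the shares were 9.91% and 1.94%.

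Some exon sizes recur in the chromosome 1 model. A length that occurs more than once was found in 17 of its 49 blocks and a length that occurs once in 32. Exactly 30 bases were found in 7 blocks, exactly 324 in 4 and exactly 209 in 2. Its blocks ran from 3 to 549 bases with a median of 58.0. The chromosome 4 model had more even blocks, from 4 to 229 bases with a median of 106.5, and 4 of its 40 blocks had a length that occurs more than once. The files give 1 count per model, so that the level of single exons was not analysed here.

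The order of exon sizes was then compared with that of other models, a comparison chosen after the values were seen. For each of 7823 models with at least 10 blocks, the largest number of blocks of identical length in the same 5′ to 3′ order was counted. For the chromosome 4 model the median was 2 shared blocks, and 6 models shared 12 to 17 of its 40, while the next shared 9. All 6 lie on chromosome 4. One is ENSRNOG00000006709, the neighbour 10.1 kb away on the same strand, with 16 shared blocks out of 36. The other 5 lie together at 158103689 to 158630786. The 6 models have 4381 to 4677 bases, close to the 4371 of the chromosome 4 model.

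**Figure D5:**
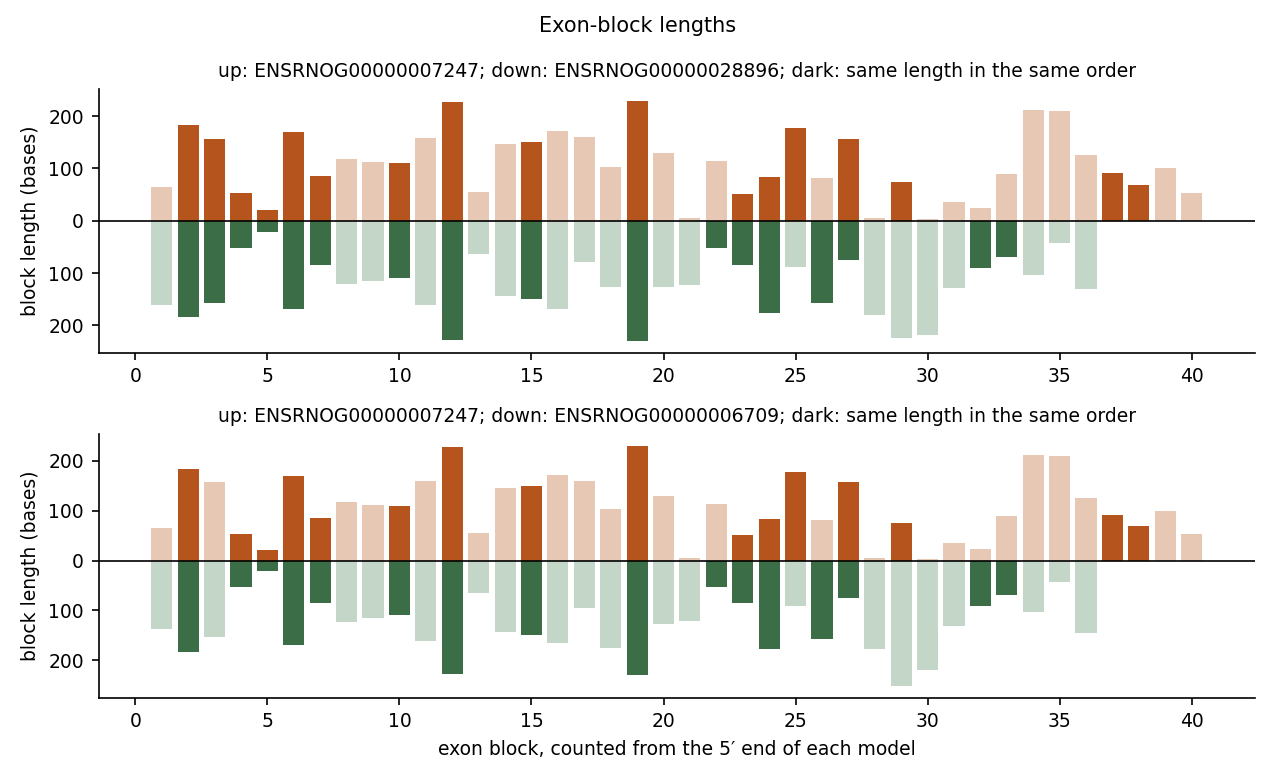
Length in bases of each exon block, counted from the 5′ end, of the chromosome 4 model (upward bars) against ENSRNOG00000028896 (top, downward bars) and ENSRNOG00000006709 (bottom, downward bars). Dark bars are blocks of identical length in the same order, 17 in the top and 16 in the bottom panel.

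Of this set of 7 models with a like exon order, the chromosome 4 model held nearly all counts. ENSRNOG00000028896 (chromosome 4, 158103689–158153422, plus strand), with 17 shared blocks, had 28.1 ± 4.98 CPM (SD, n = 7) and a range of 21.5 to 36.4 CPM. It was the only other one detected, and the chromosome 4 model was 484-fold above it by RPKM. The remaining 5 had means of 0.00454 to 0.131 CPM. The chromosome 4 model thus took 99.8% ± 0.0515 of the CPM of the set (SD, n = 7). Over the 7 rats ENSRNOG00000028896 had r = -0.277 with the chromosome 4 model, ENSRNOG00000006709 had 0.884 (0.774 without rats 2 and 4) and ENSRNOG00000042228 had 0.460. ENSRNOG00000037188, ENSRNOG00000033245 and ENSRNOG00000005599 had -0.300, -0.528 and 0.253, on 3.58, 2.58 and 2.25 counts in all 7 rats together. These values are given as a description with no test. ENSRNOG00000006709 rested on 63 counts in all 7 rats together and ENSRNOG00000042228 on 38.6, and neither was detected. The counts of ENSRNOG00000028896 and ENSRNOG00000006709 were whole in every rat, whereas those of the chromosome 4 model held fractions in 4 rats and were whole in 3. Fractions also occurred in the rest of the set, in 4 rats each for ENSRNOG00000042228 and ENSRNOG00000037188. For ENSRNOG00000033245 and ENSRNOG00000005599 they occurred in 1 rat each. Whether models of the set shared reads was not tested.

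No model shared as many as 10 blocks in order with the chromosome 1 model, and its highest value, 9, belonged to a model of 113 blocks. Among its neighbours, ENSRNOG00000034038 shared 4 of its 8 blocks in order (148, 209, 30 and 151 bases). Of 1032 models with 8 blocks, 1 shared as many, which was ENSRNOG00000034038 itself. Of the shared lengths, 30 and 209 bases recur within the chromosome 1 model, in 7 and 2 blocks. ENSRNOG00000022737 (chromosome 1, 190752444–190844600, plus strand), 188 kb away on the 3′ side with 39 blocks and 5784 bases, shared 7, against a median of 2 for the 35 models with 39 blocks. This number is not particular to the neighbour. ENSRNOG00000012609, with 38 blocks and 165450 kb away on chromosome 1, shared 8, and ENSRNOG00000009419 and ENSRNOG00000031700, with 54 and 85 blocks, shared 7 each. The lengths shared by ENSRNOG00000022737 include 30 bases, which recurs in the chromosome 1 model. ENSRNOG00000022737 had 0.203 to 0.531 CPM and r = -0.504 with the chromosome 1 model (exact permutation p = 0.217), far below the level of the chromosome 1 model.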

How the data were processed

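For each of 7 libraries the authors deposited 1 table of estimated counts by model. The submitters' processing notes list STAR 2.7.1a and featureCounts 1.6.5, whereas version 1.6.3 of the latter stands in the file headers. The annotation, per the file headers, was an extension by the authors of Ensembl release 67 (RGSC3.4), read at the exon level with strand setting 2, a minimum overlap of 1 base and a minimum mapping quality of 0. Reads that map more than once were split into fractions, and reads over several models were left unassigned, per the file headers. PolyA selection leaves out RNA without a tail, and model length is exon bases per the file headers.

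CPM, RPKM and log2(CPM + 0.1) were computed here with Python 3.11.15, numpy 2.4.6, scipy 1.17.1, pandas 2.3.3 and matplotlib 3.10.9. TMM factors came from edgeR 4.0.16 and size factors from DESeq2 1.42.0 (R 4.3.3), on counts rounded to whole numbers. Correlations had two-sided exact permutation p-values over the 5040 orders of 7 rats, adjusted by Benjamini-Hochberg. Levels chose the members and were not tested. No pair of the 21 pairs of libraries agreed within counting noise (chi-square 11.4 to 105.6 times its degrees of freedom). The correlation step was also run on simulated counts whose noise was independent between models. That setting leaves out the lean to negative r seen with total counts, so it says nothing on the unadjusted counts of related models. None of the identifiers matched the gene name table (GRCr8).

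Named models are the 2 chosen; of those within 500 kb, the nearest on each side and the 3 highest; and the 2 with the highest and the 2 with the lowest r at 1 CPM or more. Members, lists and rules were chosen with earlier results of these data known.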

Additional observations from a re-analysis of the deposited data

Results flagged for a closer look

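Among 28 values, 2 had a single rat beyond Dixon's 95% critical value. By chance alone about 1 in 20 groups is marked in this way. One was the ratio of the chromosome 1 to the chromosome 4 model: rat 4 had 3.09, below a range of 3.51 to 3.77 in the remaining 6 rats, and this distance made up 0.619 of the full spread. The second was ENSRNOG00000025651, a neighbour of the chromosome 1 model, whose 25.6 CPM in rat 7 exceeded the 21.3 to 23.0 CPM of the remaining rats by 0.602 of the full spread.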

How the results depend on the processing

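Levels moved with the denominator: without the 10 highest models in the total they were 84629 and 23867 CPM. Per kilobase, the ranks became 10 and 16 and the shares of chromosome counts 14.9% and 14.3%. With each rat left out, the levels stayed at 45190 to 46432 and 12590 to 13179 CPM and the shares at 42.6% to 43.7% and 29.7% to 30.9%. A window of 250 kb held 5 models near the chromosome 1 model, 4 of them detected, and 12 near the chromosome 4 model; 1 Mb held 27 and 31. The relation between the 2 models passed the threshold at r = 0.910 (TMM), 0.913 (DESeq2) and 0.911 (without the 10 highest models), and with single rats left out it was between 0.797 and 0.992 (adjusted exact permutation p 0.0625 to 0.698). What part the shared scaling factors have in these passes was not tested. The relations with the 6 abundant chromosome 3 models rose to 0.803 to 0.816 and 0.733 to 0.747 under the same 3 scalings without passing. The relation of the chromosome 1 model with mitochondrial models spanned -0.0352 to 0.837 over the fits with 6 rats and reversed without rat 6. That of the chromosome 4 model reversed to 0.188 (TMM), 0.216 (DESeq2), 0.163 (without the 10 highest models) and 0.0357 (Spearman's rho), and spanned -0.284 to 0.355 over the fits with 6 rats, reversed without rat 4 (0.355) and rat 7 (0.352). ENSRNOG00000007310 reversed against the chromosome 4 model to 0.187 (TMM), 0.204 (DESeq2), 0.154 (without the 10 highest models), 0.00225 (pseudocount 1) and 0.107 (rho), and spanned -0.219 to 0.529 over the fits with 6 rats, reversed without rat 4 (0.529) and rat 7 (0.176). ENSRNOG00000006264 spanned -0.226 to 0.545, reversed without rat 2 (-0.0494) and rat 4. None of the reversed relations passed the threshold, and the cause was not tested. Without rat 1, 2 or 7 in turn, 9.42%, 10.9% and 6.50% of detected models had an unadjusted p under 0.05 with the chromosome 1 model, against 17.0% with all rats. For the chromosome 4 model the share was 2.47% without rat 3, 10.7% without rat 4, 3.79% without rat 6 and 2.93% without rat 7, 9.62% with TMM factors and 9.84% with DESeq2 size factors, against 5.91%. The count of models past the adjusted threshold was 0 in every alternative run, where 7 or 6 rats can hardly reach it. No paired analysis was possible because there is only 1 group.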
